A study of Gallus gallus with 4 samples.

Results

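Regulators of muscle differentiation were followed in chicken breast muscle, 3 of them activators of myogenesis (MYOD1, SMYD1 and follistatin, FST) and 2 of them inhibitors (ID2 and HDAC9). They were chosen by gene ID or gene name for what they do and not by a threshold on these data, although earlier results of these data were known, and they are 5 of the 17934 gene IDs measured. All 5 were found, and all 5 had a mean of at least 1 FPKM (a gene's sequenced fragments scaled by transcript length and by library depth), the level above which genes were tested. RNA was sequenced from female birds of 7 weeks, of the slow-growing Xinghua breed (XH) and the fast-growing Recessive White Rock breed (WRR). Each breed gave a low-weight and a high-weight group. The XHl birds averaged 207.6 g (± 11.1) and the XHh birds 305.8 g (± 23.3), and the WRRl birds averaged 695.0 g (± 24.4) and the WRRh birds 1064.0 g (± 11.1), with an error whose kind the labels do not state. Each group is 1 library made from 1 RNA pool of 3 birds, so no group has a replicate, and each breed came from its own supplier, so breed and supplier cannot be told apart.

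Skeletal muscle forms when myoblasts leave the cell cycle and fuse, under basic helix-loop-helix factors of the MyoD family that bind DNA together with E proteins and act alongside MEF2 factors. Id proteins lack a DNA-binding region and hold E proteins away from MyoD, and class IIa histone deacetylases bind MEF2 and silence its targets until kinases such as CaMK and protein kinase D send them out of the nucleus. Follistatin works from outside the cell, where it traps myostatin and activins, which restrain muscle growth, and SMYD1 serves the later step in which myosin is folded into the sarcomere.

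Summed over genes, the libraries held between 541794 and 637679 FPKM, and between 12419 and 12904 gene IDs were above 0. The tables hold no read counts, but the smallest values move in steps set by depth, and these put XHl at 1.51, XHh at 0.861 and WRRl at 0.844 times the depth of WRRh. Only between 15 and 22 low genes per library lay on the step, so this depth is approximate and the counting error of a single value is unknown. Fast fibre markers, which define breast muscle, were high in every library (MYL1, a fast myosin light chain, lay between 13713 and 18823 FPKM), although TNNC2, fast troponin C, was listed at 0 in all 4. Of the 17934 gene IDs, 4112 were listed at 0 in all 4. Whether a value of 0, for these or for a gene at 0 in a single library, means absent RNA was not tested. Over the 10669 genes tested the median breed difference was -0.24 on the log2(FPKM + 1) scale, so a gene at no difference stood above most others. The median-of-ratios scaling, which sets the middle gene of each library equal, brought that median to 0.00.

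MYOD1 and SMYD1 were high in the slow-growing breed, at somewhat over 2-fold of their level in White Rock, while FST, ID2 and HDAC9 were all near 0.5-fold. MYOD1 and SMYD1 thus had a difference above 0, as had 3018 of all 10669 genes tested. The activator FST had one below 0 with the inhibitors, which was the common side, held by 7651 genes. The test of breed called 3 of the 5 members (MYOD1, SMYD1 and ID2), against 4.75% of all genes tested, and no member passed the test of weight class. The adjusted p of the 5 for breed lay between 0.0479 and 0.0675 from limma, so members called and not called were close. All 5 were among the 3658 of 10669 genes with an unadjusted p under 0.05 for breed from limma.

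MYOD1 encodes the master transcription factor that can turn other cells into muscle, and it is kept on in satellite cells that have been activated. The gene (ENSGALG00000006216, chromosome 5, positions 13282610 to 13286567 as the tables give them) had 313.6 FPKM in XHl and 277.6 FPKM in XHh, against 112.6 FPKM in WRRl and 118.9 FPKM in WRRh. Both XH libraries stood far above both WRR libraries, and within each breed the libraries lay close together. The means were 296 ± 25.5 FPKM in XH and 116 ± 4.41 FPKM in WRR (SD, n = 2 each, the weight classes of a breed standing in as its libraries). The breed difference was 1.34 on the log2(FPKM + 1) scale (standard error 0.12, adjusted p = 0.0479 from limma), and 133 of the 10669 genes tested had a larger one. The same positions carry an unnamed gene model, ENSGALG00000023669, at 0 FPKM in 3 libraries and 0.618 FPKM in XHh, so reads of the locus could be split between them but hardly any were given to the unnamed model.

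SMYD1 encodes a methyltransferase of heart and skeletal muscle that associates with myosin and is needed for thick filaments to assemble in zebrafish. It (ENSGALG00000015935, chromosome 4, positions 89131776 to 89154132) had 265.4 FPKM in XHl and 286.3 FPKM in XHh, against 127.9 FPKM in WRRl and 131.6 FPKM in WRRh. These levels were much like those of MYOD1 in all 4 libraries, and again the breeds did not overlap. SMYD1 averaged 276 ± 14.8 FPKM in XH and 130 ± 2.59 FPKM in WRR, and its log2 difference was 1.08 (standard error 0.11, adjusted p = 0.0479 from limma). Of all tested genes, 1.22% were called higher in XH and 15.0% had both XH libraries above both WRR libraries, and MYOD1 and SMYD1 were in both sets.

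FST, the secreted antagonist of myostatin and activin, lies on the Z chromosome (ENSGALG00000014908, positions 15391866 to 15398215). It had 6.95 FPKM in XHl and 7.50 FPKM in XHh, against 19.4 FPKM in WRRl and 12.8 FPKM in WRRh. Both XH values were nearly equal and below both WRR values, and the WRR values were the more spread, at 7.23 ± 0.386 FPKM in XH and 16.1 ± 4.69 FPKM in WRR. The log2 difference of -1.03 (standard error 0.21) did not pass the test (adjusted p = 0.0675 from limma). All birds were female and carry a single Z chromosome, so sex did not differ between the groups.

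ID2, the inhibitor that binds E proteins, was the most abundant of the 3 members that were low in XH. It (ENSGALG00000016403, chromosome 3, positions 98711719 to 98725250) had 39.0 FPKM in XHl and 26.0 FPKM in XHh, against 77.2 FPKM in WRRl and 54.6 FPKM in WRRh. The breeds did not overlap, and in each breed the low-weight pool held the more. ID2 fell to 32.5 ± 9.21 FPKM in XH, against 65.9 ± 16.0 FPKM in WRR, a log2 difference of -1.00 (standard error 0.12, adjusted p = 0.0483 from limma). With the median-of-ratios scaling the difference was -0.73 and no longer passed (adjusted p = 0.0608 from limma).

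HDAC9, a class IIa histone deacetylase that represses MEF2 targets and responds to innervation in mouse muscle, was the least abundant member in every library. It (ENSGALG00000010854, chromosome 2, positions 29265255 to 29534926) had 4.21 FPKM in XHl and 3.85 FPKM in XHh, against 8.76 FPKM in WRRl and 11.6 FPKM in WRRh. Again no XH library reached a WRR library, with 4.03 ± 0.255 FPKM in XH and 10.2 ± 2.03 FPKM in WRR. The log2 difference was -1.14 (standard error 0.19) and did not pass the test (adjusted p = 0.0554 from limma). Of all tested genes, 3.53% were called lower in XH and 51.8% had both XH libraries below both WRR libraries, so the separation of FST, ID2 and HDAC9 is one that most genes showed.

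**Figure D1:**
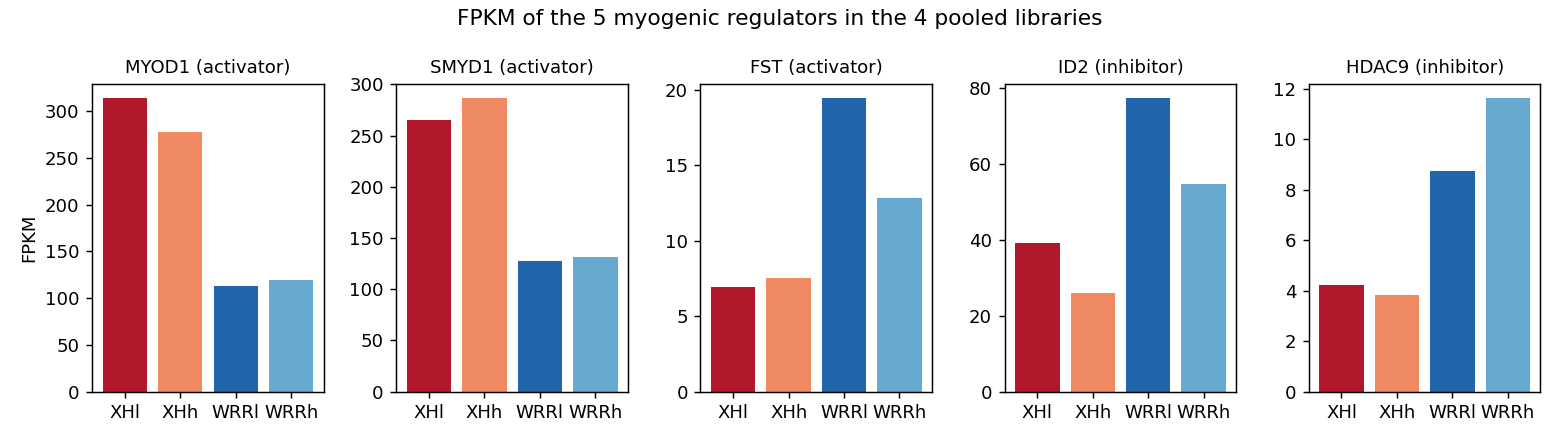
Bars show FPKM (y axis, from 0, a scale of its own in each panel) of the 5 regulators in the 4 pooled libraries, XHl, XHh, WRRl and WRRh, with 1 library per bar and so no error bar. MYOD1 and SMYD1 stand above 265 FPKM in both XH libraries and below 132 FPKM in both WRR libraries, and FST, ID2 and HDAC9 are lower in both XH libraries than in either WRR library.

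FPKM is scaled per length, so the members can also be ranked within a library. In all 4 libraries MYOD1 and SMYD1 led, ID2 followed, then FST, and HDAC9 came last, with MYOD1 above SMYD1 in XHl and below it in the other 3. MYOD1 and SMYD1 lay close together in every library, where the FPKM ratio of MYOD1 to SMYD1 was 1.18 in XHl, 0.969 in XHh, 0.881 in WRRl and 0.903 in WRRh. Among genes above 0 in a library, MYOD1 lay at percentile 98.0 in XHl, 97.8 in XHh, 94.9 in WRRl and 95.0 in WRRh, so it was an abundant message in both breeds. HDAC9 was a middling one, at percentiles 42.6 in XHl, 39.7 in XHh, 51.3 in WRRl and 61.3 in WRRh. FST stood close to HDAC9 in WRRh, where their FPKM ratio was 1.10, and further above it in the other libraries, at 1.65 in XHl, 1.95 in XHh and 2.22 in WRRl.

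The calls of the breed test rest on few libraries, since the model of breed and weight class leaves 1 residual degree of freedom, and an exact permutation test of 2 libraries against 2 cannot give a two-sided p below 0.333. Leaving out 1 library also took weight class out of the model, so that the spread came from the breed that kept both its libraries and the lone library was assumed to vary like them. With all 4 libraries and breed alone in the model, ID2 lost its call (adjusted p = 0.0757 from limma) and HDAC9 gained one (adjusted p = 0.0429 from limma). With a library left out every sign was kept but not every call, and without XHh or XHl no member was called (adjusted p between 0.211 and 0.308 from limma). The signs could not have changed here, as for each member both XH libraries lay on the same side of both WRR libraries. Without XHh the log2 difference was 1.43 for MYOD1, 1.03 for SMYD1 and -0.72 for ID2, and without XHl it was 1.25, 1.14 and -1.29 for these genes in that order. Without WRRl the call was kept for MYOD1 (1.30, adjusted p = 0.0456 from limma) and lost for SMYD1 (1.06, adjusted p = 0.0545) and ID2 (-0.76, adjusted p = 0.174). Without WRRh the calls of FST (-1.31, adjusted p = 0.0220) and HDAC9 (-0.96, adjusted p = 0.0435) were gained and that of ID2 was lost (-1.25, adjusted p = 0.0575).

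Set against the median of all genes, the picture was less even. MYOD1 stood 1.59 and SMYD1 1.33 above that median on the log2 scale, whereas FST stood at -0.79, ID2 at -0.76 and HDAC9 at -0.90 relative to it. In rank among the 10669 genes, MYOD1 was number 134 and SMYD1 number 185 from the top, while HDAC9 was number 732, FST number 933 and ID2 number 984 from the bottom. Every sign held under median-of-ratios scaling (MYOD1 1.62, SMYD1 1.36, FST -0.77, ID2 -0.73, HDAC9 -0.90) and under quantile normalization (MYOD1 1.38, SMYD1 1.13, FST -0.76, ID2 -0.91, HDAC9 -0.76).

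The breed difference was seen in each weight class, though not at the same size for every member. In XHl vs. WRRl the FPKM of MYOD1 was 2.78-fold, SMYD1 2.07-fold, FST 0.358-fold, ID2 0.506-fold and HDAC9 0.481-fold. In XHh vs. WRRh it was 2.33-fold for MYOD1, 2.18-fold for SMYD1, 0.586-fold for FST, 0.476-fold for ID2 and 0.331-fold for HDAC9. SMYD1 and ID2 thus gave almost the same ratio in both weight classes, FST was further apart among the light birds and HDAC9 among the heavy ones. On the log2(FPKM + 1) scale, MYOD1, SMYD1 and FST were at least 2-fold apart in XHl vs. WRRl, where 1.83% of genes were at least 2-fold higher and 12.3% at least 2-fold lower. In XHh vs. WRRh MYOD1, SMYD1, ID2 and HDAC9 were, where 1.93% of genes were at least 2-fold higher and 7.29% lower. Whether a ratio differed between the weight classes was not tested, as each ratio has 1 library on either side.

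**Figure D2:**
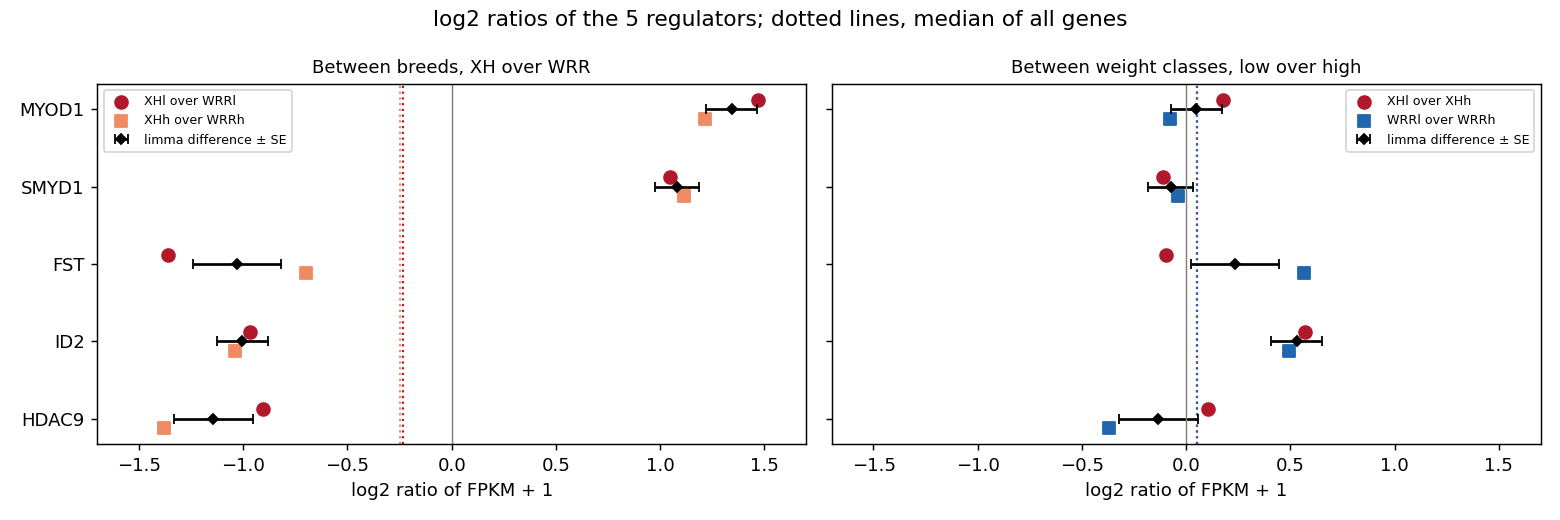
Points show log2 ratios of FPKM + 1 (x axis) of each regulator (rows) between the breeds (left, XHl over WRRl and XHh over WRRh) and between the weight classes (right, XHl over XHh and WRRl over WRRh), black diamonds the limma difference with its standard error, and dotted lines the median of all genes. Between the breeds MYOD1 and SMYD1 lie right of 1.0 and the other 3 members left of the dotted lines, and between the weight classes ID2 (0.57 and 0.49) is the member on the right in both breeds by over 0.4.

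Between light and heavy birds of a breed, ID2 had nearly the same ratio in both breeds: the low-weight pool held 1.50-fold the FPKM of the high-weight pool in XHl vs. XHh and 1.41-fold in WRRl vs. WRRh. Its log2 difference, low minus high, was 0.53 (standard error 0.12), with an unadjusted p of 0.0121 and an adjusted p of 0.809 from limma, so it did not pass. FST had 0.927-fold in XHl vs. XHh and 1.52-fold in WRRl vs. WRRh, and its log2 difference was 0.24 (adjusted p = 0.842 from limma). HDAC9 had 1.09-fold in XHl vs. XHh and 0.753-fold in WRRl vs. WRRh, at a log2 difference of -0.13 (adjusted p = 0.889 from limma). MYOD1 and SMYD1 hardly differed between light and heavy birds, at 0.05 and -0.07 on the log2 scale (adjusted p = 0.949 and 0.891 from limma). None of the 5 members was called, against 0.0562% of all genes tested (6 of 10669, with 619 at an unadjusted p under 0.05), or 0.0375% higher and 0.0187% lower in the low-weight pools. None was at least 2-fold apart in XHl vs. XHh, where 0.779% of genes were at least 2-fold higher and 0.539% lower, or in WRRl vs. WRRh, where 3.28% were higher and 0.748% lower.

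Activators were then set against inhibitors within each library. A library's MYOD1 FPKM over its ID2 FPKM was 8.04 in XHl and 10.7 in XHh, against 1.46 in WRRl and 2.18 in WRRh. The ID2 message thus stood closer to that of MYOD1 in both White Rock libraries than in either XH library. These are ratios of RNA, and protein was not measured. MYOD1 over HDAC9 was 74.5 in XHl and 72.1 in XHh, against 12.9 in WRRl and 10.2 in WRRh. SMYD1 over ID2 was 6.80 in XHl and 11.0 in XHh, against 1.66 in WRRl and 2.41 in WRRh, and SMYD1 over HDAC9 was 63.0 in XHl and 74.4 in XHh, against 14.6 in WRRl and 11.3 in WRRh. All 4 of these ratios were separated by breed and lay 4.38- to 6.35-fold higher in XH by their means. They restate the breed differences of the single genes and are no separate evidence. A gene higher in both XH libraries, divided by a gene lower in both, must give a separated ratio. Of all tested genes, 51.8% were lower in both.

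The ratios of FST ran otherwise. FST over ID2 was 0.178 in XHl and 0.289 in XHh, against 0.252 in WRRl and 0.235 in WRRh, and FST over HDAC9 was 1.65 in XHl and 1.95 in XHh, against 2.22 in WRRl and 1.10 in WRRh. In both ratios the breeds overlapped. The breeds also overlapped in the ratio of the inhibitors, with ID2 over HDAC9 at 9.27 in XHl and 6.75 in XHh, against 8.81 in WRRl and 4.69 in WRRh. Within the activators, MYOD1 over FST was 45.1 in XHl and 37.0 in XHh, against 5.79 in WRRl and 9.29 in WRRh. This ratio had to be separated by breed, as MYOD1 was higher and FST lower in both XH libraries, and it is no separate evidence.

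As a single measure, the mean log2(FPKM + 1) of MYOD1, SMYD1 and FST less that of ID2 and HDAC9 was 2.60 in XHl and 2.94 in XHh, against 1.28 in WRRl and 1.19 in WRRh. The gap averaged 2.77 ± 0.24 in XH and 1.23 ± 0.06 in WRR (SD, n = 2 each), and the breeds were 1.54 apart. With FST left out, an alternative added after its values were seen, the gap was 4.33 in XHl and 4.63 in XHh, against 2.13 in WRRl and 2.25 in WRRh, and the breeds were 2.29 apart. The gap carries no test, as its members were chosen with results known, and it too restates their breed differences.

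**Figure D3:**
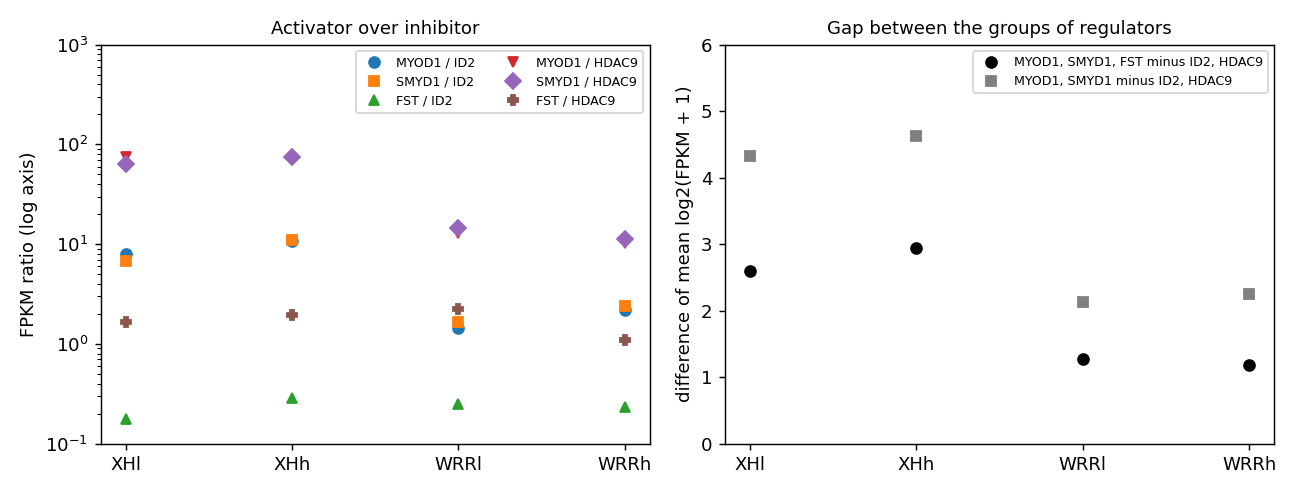
The left panel shows the FPKM ratio of each activator to each inhibitor (y axis, log scale) in the 4 libraries, and the right panel the gap in mean log2(FPKM + 1) between activators and inhibitors, with FST (black) and without it (grey), 1 point per library. Ratios of MYOD1 and SMYD1 fall apart by breed (for MYOD1 over ID2, 8.04 and 10.7 in XH, 1.46 and 2.18 in WRR), ratios of FST overlap, and both gaps are wider in XH.

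The relatives and partners of the members were read from lists by role, whose genes were matched by symbol (102 of the 181 list genes, markers included). Among myogenic transcription factors and co-activators, 11 genes of 22 were tested, and MYOD1 was the 1 gene called, higher in XH. The median of the list was 0.06, against -0.24 over all genes tested. The calls in this and the following lists stand beside 1.22% of all genes tested called higher in XH and 3.53% called lower. MEF2D, the MEF2 factor that was measured, had 27.3 FPKM in XHl and 23.6 FPKM in XHh, against 24.9 FPKM in WRRl and 21.0 FPKM in WRRh. MEF2C was listed at 0 in all 4 libraries. MYF5, MYF6, MYOG and MEF2A were not matched by symbol and not analysed here, so MYOD1 was not compared with them.

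Among inhibitors of myogenic transcription, 10 of 24 genes were tested, ID2 was the 1 gene called, lower in XH, and the list's median was -0.52. All 10 had a difference below 0, as had 7651 of all 10669 genes tested, but ID1, HDAC4 and HEY1 had one above 0 with median-of-ratios scaling. That scaling put the list's median at -0.27. In the main fit, without the members ID2 and HDAC9, the median of the other 8 tested genes was -0.39 and none of them was called. ID1, another Id protein, had 59.9 FPKM in XHl and 33.9 FPKM in XHh, against 37.1 FPKM in WRRl and 68.0 FPKM in WRRh, so its breeds overlapped. ID4 was at 11.1 FPKM in XHl and listed at 0 in XHh, against 11.9 FPKM in WRRl and 21.6 FPKM in WRRh. HDAC4, another class IIa histone deacetylase, was at 5.34 FPKM in XHl and 5.70 FPKM in XHh, against 5.69 FPKM in WRRl and 5.68 FPKM in WRRh. HDAC7 was listed at 0 throughout, and ID3 and HDAC5 were not matched by symbol and not analysed here. MDFI, which binds MyoD family factors and masks them, had 1.29 FPKM in XHl and 0.798 FPKM in XHh, against 3.85 FPKM in WRRl and 3.94 FPKM in WRRh, and did not pass (adjusted p = 0.0598 from limma). EZH2, the Polycomb methyltransferase, was at least 2-fold higher in WRRl vs. WRRh (8.88 and 3.93 FPKM) and had 4.08 FPKM in XHl and 3.30 FPKM in XHh.

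The SMYD family and the myosin chaperones gave 9 tested genes of 15, and SMYD1 was the 1 gene called, with a list median of -0.06. SMYD2 had 7.08 FPKM in XHl and 7.60 FPKM in XHh, against 10.7 FPKM in WRRl and 14.9 FPKM in WRRh, which is the opposite side from SMYD1 but did not pass (adjusted p = 0.0734 from limma). UNC45B, the muscle chaperone that folds myosin together with HSP90 and, in zebrafish, with SMYD1, had 82.6 FPKM in XHl and 91.6 FPKM in XHh, against 66.7 FPKM in WRRl and 84.4 FPKM in WRRh. Both genes lie outside the naming rule and were picked after their values were seen.

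Of 25 genes of follistatin, myostatin and activin signalling, 9 were tested, FST among them, 8 had a difference below 0 (as had 7651 of all 10669 genes tested), and the list's median was -0.81. Limma called FSTL1 and SMAD3 lower in XH and none higher. FSTL1, a follistatin-like glycoprotein of mesenchymal cells, had 53.8 FPKM in XHl and 64.5 FPKM in XHh, against 138 FPKM in WRRl and 128 FPKM in WRRh (log2 difference -1.16, adjusted p = 0.0483 from limma). SMAD3, which carries the myostatin and activin signal to the nucleus, had 4.42 FPKM in XHl and 5.09 FPKM in XHh, against 11.5 FPKM in WRRl and 11.3 FPKM in WRRh (-1.11, adjusted p = 0.0483 from limma). MSTN, the myostatin that FST traps, was not split by breed, with 62.4 FPKM in XHl and 43.0 FPKM in XHh, against 46.5 FPKM in WRRl and 63.0 FPKM in WRRh. SMAD7, the inhibitory Smad, was lowest in XHh at 1.51 FPKM, with 5.50 FPKM in XHl, 6.73 FPKM in WRRl and 6.37 FPKM in WRRh. With median-of-ratios scaling the list's median was -0.53, and limma called none of the list's genes under it.

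The kinases and co-repressors that act on class IIa histone deacetylases gave 13 tested genes of 20 and a list median of -0.09. PRKD3, a protein kinase D, fell to 2.84 FPKM in XHl and 3.14 FPKM in XHh, against 9.25 FPKM in WRRl and 7.74 FPKM in WRRh (-1.25, adjusted p = 0.0489 from limma). PRKAA2, the muscle catalytic subunit of AMP-activated kinase, had 13.3 FPKM in XHl and 20.4 FPKM in XHh, against 28.0 FPKM in WRRl and 47.1 FPKM in WRRh (-1.09, adjusted p = 0.0483 from limma). With median-of-ratios scaling neither passed (-1.01 for PRKD3 and -0.82 for PRKAA2). CAMK2A, a subunit of the CaMK named above, had 7.17 FPKM in XHl and 8.99 FPKM in XHh, against 3.37 FPKM in WRRl and 2.05 FPKM in WRRh (adjusted p = 0.0649 from limma). SIK1, a salt-inducible kinase, had 197 FPKM in XHl and 162 FPKM in XHh, against 77.1 FPKM in WRRl and 118 FPKM in WRRh (adjusted p = 0.107 from limma). Both of these had positive differences, of 1.31 for CAMK2A and 0.90 for SIK1.

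Of 21 muscle genes known as targets of the myogenic factors, 7 were tested and none was called, with 3 above 0, 4 below 0 and a median of -0.25, against -0.24 over all genes. ACTC1, the cardiac actin that embryonic skeletal muscle uses, was low in XHh at 82.9 FPKM and had 387 FPKM in XHl, 391 FPKM in WRRl and 267 FPKM in WRRh. DES, the muscle intermediate filament protein, was between 906 and 993 FPKM in all 4 libraries, and was named after its values were seen.

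**Figure D4:**
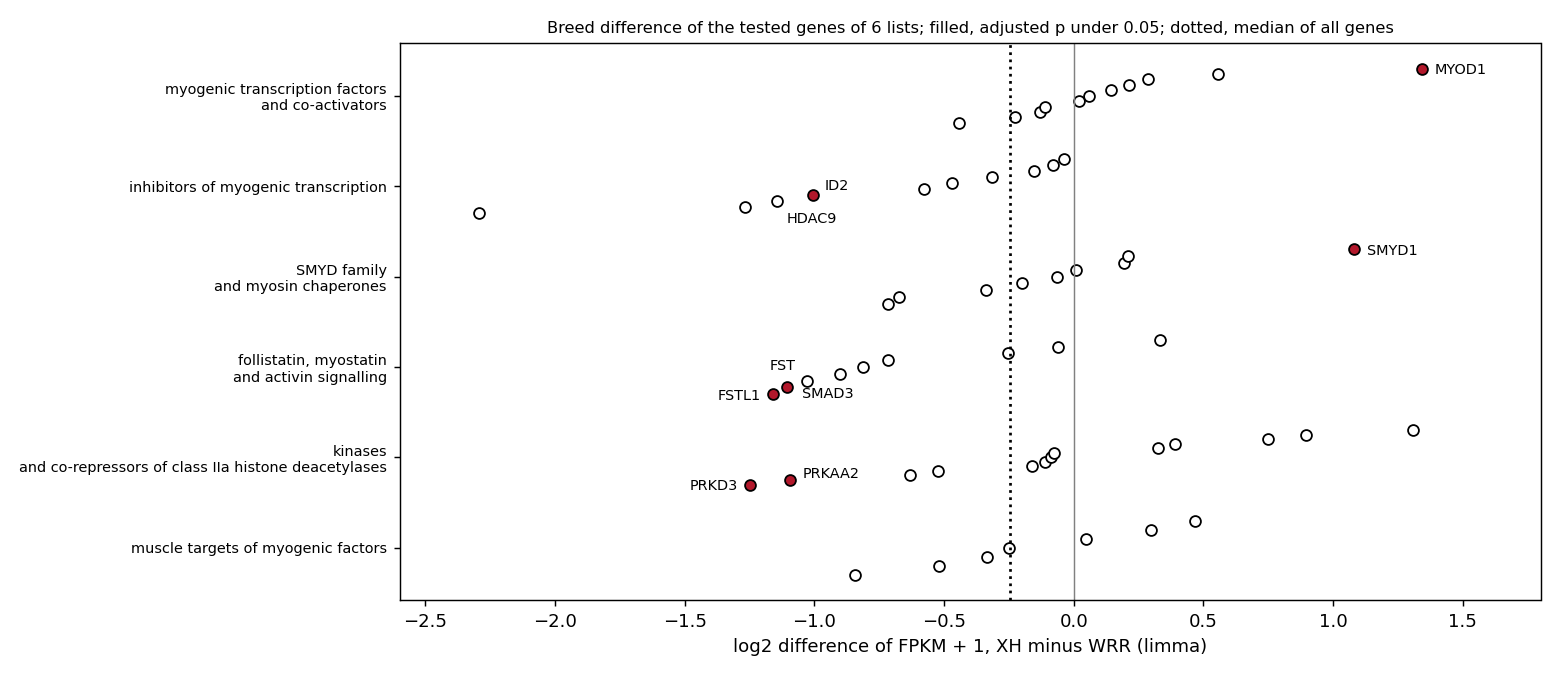
Points show the breed difference (x axis, log2 of FPKM + 1, XH minus WRR) of each tested gene of 6 lists by role (rows), filled where the adjusted p from limma was under 0.05, with the median of all genes dotted. MYOD1 (1.34) and SMYD1 (1.08) stand apart on the right of their lists, where no other gene is filled, and HDAC9, ID2 and FST lie near -1 with FSTL1, SMAD3, PRKD3 and PRKAA2.

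Muscle is a mixed tissue, and in a pooled bulk sample fewer cells of a type and less RNA per cell cannot be told apart. FST, ID2 and HDAC9 were low in XH together with markers of connective tissue and immune cells. A difference below 0 was common, as 7651 of all 10669 genes tested had one. Of 10 fibroblast markers 7 were tested, all 7 lower in XH with a median of -1.39, and their FPKM summed to 958 in XHl and 1195 in XHh, against 2429 in WRRl and 1980 in WRRh. Limma called COL1A2, a collagen I chain, and THY1, a surface protein of fibroblasts, lower in XH, against 3.53% of all genes tested. With median-of-ratios scaling it called THY1 alone of these markers, and 119 of all 10648 genes tested lower in XH. Of 10 macrophage markers 7 were tested, all 7 with a difference below 0 (LY86 above 0 with median-of-ratios scaling) and a median of -1.71. Against the same shares of all genes, limma called 5 of the 7 lower in XH, and 3 with median-of-ratios scaling. The 7 summed to 152 FPKM in XHl and 107 FPKM in XHh, against 583 FPKM in WRRl and 250 FPKM in WRRh. C1QA and C1QB, complement chains that macrophages make, were at 9.62 and 10.6 FPKM in XHl and at 7.41 and 6.23 FPKM in XHh, against 52.5 and 41.1 FPKM in WRRl and 27.9 and 20.1 FPKM in WRRh. In WRR, FST, ID2 and the summed fibroblast and macrophage markers were higher in WRRl, and HDAC9 was higher in WRRh (11.6 FPKM, against 8.76 FPKM in WRRl). In XH, ID2, HDAC9 and the macrophage sum were higher in XHl, and FST and the fibroblast sum in XHh. The part of these cells in the levels of FST, ID2 and HDAC9 was not tested.

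For MYOD1 and SMYD1, markers of satellite cells and of fibres are set beside the values above. Of 8 satellite cell markers SDC4 and NCAM1 were tested, and they summed to 29.4 FPKM in XHl and 23.2 FPKM in XHh, against 32.6 FPKM in WRRl and 27.8 FPKM in WRRh. The defining marker PAX7 was not matched by symbol and not analysed here. Of 10 fast fibre markers 5 were tested and none was called, with a median of 0.27 and a sum of 34818 FPKM in XHl and 41803 FPKM in XHh, against 34236 FPKM in WRRl and 34467 FPKM in WRRh. Slow or cardiac fibre markers gave 6 tested genes of 10 with a median of -0.62. Of these, limma called MYL2. This regulatory light chain of slow and cardiac myosin had 30.7 FPKM in XHl and 31.8 FPKM in XHh, against 6.12 FPKM in WRRl and 4.88 FPKM in WRRh (2.32, adjusted p = 0.0467 from limma). TNNT2 and TNNI1, troponins of the same fibres, were highest in WRRl, at 24.2 and 9.66 FPKM. TNNC1, the most abundant of the 6, had 4884 FPKM in XHl and 7354 FPKM in XHh, against 8100 FPKM in WRRl and 8217 FPKM in WRRh. MYOZ2 had 3.54 FPKM in XHl and 5.91 FPKM in XHh, against 4.33 FPKM in WRRl and 0.674 FPKM in WRRh (0.91, adjusted p = 0.406 from limma). Of the 6 genes, 2 had a difference above 0 and 4 had one below 0. Endothelial markers gave 4 tested genes of 8, none called, at a median of -0.11. Adipocyte markers gave 3 tested genes of 6 at a median of -1.48. PLIN1, the coat protein of fat droplets, was called lower in XH (0.583 FPKM in XHl and 1.30 FPKM in XHh, against 10.7 FPKM in WRRl and 14.5 FPKM in WRRh). LPL had a difference of -1.48 and was not called (adjusted p = 0.0501 from limma). ADIPOQ overlapped between the breeds, with 62.9 FPKM in XHl and 68.6 FPKM in XHh, against 60.9 FPKM in WRRl and 70.3 FPKM in WRRh. The part of these markers in the levels of MYOD1 and SMYD1 was not tested.

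Some genes had nearly the profile of a member over the 4 libraries. Likeness was the Euclidean distance between log2(FPKM + 1) profiles centred on their means, among 4933 genes with a symbol, a mean of at least 5 FPKM and a value above 0 in all 4 libraries. Nearest to MYOD1 were FBXO30 (distance 0.0496), a ubiquitin ligase component that mouse muscle uses in wasting, then GPR157 (0.134) and ACSL4 (0.180), an acyl-CoA synthetase. FBXO30 had 71.5 FPKM in XHl and 60.6 FPKM in XHh, against 24.5 FPKM in WRRl and 26.6 FPKM in WRRh, which keeps the order of MYOD1 library for library. Nearest to SMYD1 were ETF1 (0.0452), the translation release factor, ST6GALNAC4 (0.135) and HOMER2 (0.153).

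FST had MERTK (0.0471), a receptor that phagocytes use to clear dying cells, GMNN (0.0533), geminin of DNA replication licensing, and GXYLT2 (0.0736). ID2 had the gene listed as LMF2_CHICK (0.0741), a lipase maturation factor, P4HA3 (0.0746), a collagen prolyl hydroxylase subunit, and DUSP7 (0.112), a phosphatase of MAP kinases. HDAC9 had P4HA2 (0.0901), another collagen prolyl hydroxylase subunit, EHD4 (0.159) and RAB39B (0.170). With 4 libraries a profile of like shape is common: of 7375 genes compared, with or without a symbol, 9.87% had a Pearson correlation above 0.9 with MYOD1 and 9.17% with SMYD1, and 24.1% had one with FST, 23.4% with ID2 and 20.7% with HDAC9. A correlation ignores the size of a difference, which the distance takes in. How common a match at the distances above is was not counted.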

How the data were processed

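Breast muscle RNA of 4 pools was sequenced. The authors filtered reads, aligned them with TopHat (version not given in the sources used here) to the Ensembl chicken genome, and deposited FPKM values in 4 tables of 1 library pair each. The submitters' notes name galGal4, but the build of the positions was not established. The deposited log2 fold changes, test statistics, p-values and q-values of the authors' own comparison were not used. A library stands in 2 tables, and a value at 0 in 1 of them took the other (69 cases). No sequences are shown.

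Differences between breeds and weight classes came from limma 3.58.1 (R 4.3.3; trend and robust moderation) fitted to log2(FPKM + 1). It took the 10669 genes whose mean reached 1 FPKM, and p-values were adjusted by Benjamini-Hochberg over all of them at 0.05. The scripts were tested on simulated data. In the main model the p-values rest on how unevenly the breed difference fell in the weight classes, moderated over all genes. They do not measure a spread between replicate pools or between birds, as each group is 1 pool. MYOD1 was located by gene ID, since its gene column holds a protein accession. Genes named were drawn from the members, list genes called or at least 2-fold apart, 13 relatives set by name, and the 3 genes nearest each member. Not every list gene that met this rule is named. C1QA and C1QB are among the called macrophage markers, and the other called ones are not named. Other genes named (HEY1, SMYD2, UNC45B, DES, MYL1, TNNC1, TNNC2, TNNI2, TNNT3, SDC4, NCAM1 and ADIPOQ) were picked after their values were seen. Members and lists were chosen with earlier results of these data known. Alternatives changed the pseudocount, filters, scaling, moderation, model and libraries.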

Additional observations from a re-analysis of the deposited data

Results flagged for a closer look

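For 3 members the low-weight pool stood on the other side of the high-weight pool in each breed, on the log2(FPKM + 1) scale, and the difference between the breeds was not tested because each ratio has 1 library on either side. The ratio of low over high was 0.18 for MYOD1 in XH and -0.08 in WRR, a difference of 0.25. For FST it was -0.10 in XH and 0.57 in WRR, a difference of -0.66. For HDAC9 it was 0.10 in XH and -0.37 in WRR, a difference of 0.48.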

How the results depend on the processing

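Birds or replicate pools could not be paired because each group is 1 library and the labels carry no replicate numbers. The main model did compare the breeds within the weight classes. All breed differences of the members kept their sign in the 13 alternatives, but the calls did not: limma called MYOD1 in 7, SMYD1 in 6, HDAC9 in 4, and FST and ID2 in 3 each. Only median-of-ratios scaling and quantile normalization could have changed a sign. For each member both XH libraries lay on the same side of both WRR libraries, which fixed the sign in the other alternatives. Calls were lost with a pseudocount of 5 (MYOD1 1.31, SMYD1 1.06, ID2 -0.92), with no filter or without the trend and robust options (1.34, 1.08 and -1.00 in both), and with quantile normalization (1.38, 1.13 and -0.91). ID2 also lost its call with median-of-ratios scaling (-0.73) and with breed alone in the model (-1.00). Calls were gained at a mean of at least 5 FPKM and when genes listed at 0 anywhere were dropped (FST -1.03, HDAC9 -1.14), and for HDAC9 with breed alone (-1.14). Leaving out 1 library, which also took weight class out of the model, the breed difference ranged from 1.25 to 1.43 for MYOD1, 1.03 to 1.14 for SMYD1, -1.31 to -0.75 for FST, -1.29 to -0.72 for ID2 and -1.33 to -0.96 for HDAC9. Limma called 507 genes between the breeds, and 9 with a pseudocount of 5, 11 without a filter, 1007 at a mean of at least 5 FPKM, 1807 when genes listed at 0 were dropped, 325 with median-of-ratios scaling (206 higher and 119 lower, against 130 and 377), 14 with quantile normalization, 766 with breed alone, and between 13 (without XHl) and 1456 (without WRRh) with 1 library left out. Without the trend and robust options limma called 0, with 3472 at an unadjusted p under 0.05. Between weight classes it called 6 genes, 3 with a pseudocount of 5 or without those options, 0 when genes listed at 0 were dropped (705 at an unadjusted p under 0.05), and 12 to 18 with 1 library left out. The weight class difference of some members changed sign only with a library left out, where breed is no longer in the model and enters the weight class by construction: MYOD1 ranged from -0.69 to 0.78, SMYD1 from -0.63 to 0.48, FST from -0.45 to 0.92 and HDAC9 from -0.82 to 0.56. With a pseudocount of 5, 2 members were at least 2-fold apart in XHh vs. WRRh, against 4, and without FST the gap between activators and inhibitors was 2.29, against 1.54. The counting error of FST and HDAC9, the members with the lowest FPKM, is unknown. The cause of these changes was not tested.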
